A study of Drosophila melanogaster with 2 samples.

Results

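The regions described are the peaks of E(spl)m8-HLH whose summits lay in protein-coding sequence. A pooled peak was taken when its summit fell in the coding sequence (CDS) of at least 1 protein-coding transcript of the assembly dm6 and more than 500 bp from the transcription start site (TSS) of every protein-coding transcript. The rule used position alone, and it found 737 of the 30000 pooled peaks (2.46%, exact binomial 95% interval 2.28 to 2.64). Of these, 21 also belonged to the optimal list, which the authors had selected by irreproducible discovery rate and which held 6152 peaks. All embryos carried a stable transgene that encodes E(spl)m8-HLH with GFP at its C-terminus, and anti-GFP chromatin immunoprecipitation therefore recovered DNA bound by the tagged protein rather than by the untagged one. Chromatin came from whole embryos of mixed sex, collected between 4 and 14 h of development, so a peak is an average over all their tissues. The design was a single group with 2 biological replicates (numbers 2 and 3), and the 1 control file that both share was not analysed here. With 1 group no test between conditions was possible, and results are counts, shares and densities, several of them given beside the value in the replicates' own lists. Results by gene and gene list come from the pooled list only. Intervals cover counting error only, since peaks of the same libraries are not replicates. Peak lists hold no expression values, so the labelled stage was not checked against marker genes.

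E(spl)m8-HLH is a basic helix-loop-helix (bHLH) repressor of the Hairy/E(spl) family and a direct target of Notch signalling, and it recruits the corepressor Groucho. Proteins of this family bind E-boxes such as CACGTG and the related class C site CACGCG. Most well-studied regulatory DNA of Drosophila lies in promoters, introns and intergenic enhancers, while coding exons are constrained by the protein that they encode, though enhancers that overlap exons are known.

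The DNA under 8 of these summits is shown because these peaks carry the results on signal, base composition and motifs that follow. The first 6 belong to the optimal list, lie in both replicate lists and have a window, taken 50 bp to either side of the summit, wholly in CDS. The last pair are the strongest peaks in both replicate lists, with a window wholly in CDS and outside 1 arm not used for printing, that hold CACGTG and the repeated triplet CAGCAGCAG. Each window is read 5′ to 3′ on the coding strand of its gene from the RefSeq Release 6 sequence (dm6), with the summit at the centre. Capitals mark a match on either strand to CACGTG, to CACGCG, to CACNAG (which includes CACGAG), to the E-boxes CAGGTG or CAGCTG or CAGATG, or to the repeat CAGCAGCAG.
bun, chr2L:12457826-12457926, minus strand: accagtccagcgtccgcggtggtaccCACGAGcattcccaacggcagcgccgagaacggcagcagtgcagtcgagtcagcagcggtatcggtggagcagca
CG10654, chr3L:12506210-12506310, minus strand: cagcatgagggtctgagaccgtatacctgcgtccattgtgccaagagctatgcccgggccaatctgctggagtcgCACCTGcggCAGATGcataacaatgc
Ino80, chr3R:19371138-19371238, minus strand: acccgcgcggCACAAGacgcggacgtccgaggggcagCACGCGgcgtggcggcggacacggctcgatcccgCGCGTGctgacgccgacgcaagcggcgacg
Sgs3, chr3L:11512867-11512967, plus strand: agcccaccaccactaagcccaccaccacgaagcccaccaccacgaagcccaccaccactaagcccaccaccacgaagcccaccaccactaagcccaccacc
hth, chr3R:10605160-10605260, minus strand: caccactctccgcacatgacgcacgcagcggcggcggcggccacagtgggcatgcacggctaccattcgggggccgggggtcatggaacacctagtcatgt
CG4822, chr2L:117882-117982, minus strand: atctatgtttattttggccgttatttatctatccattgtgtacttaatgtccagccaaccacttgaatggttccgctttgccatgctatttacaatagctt
N, chrX:3163737-3163837, plus strand: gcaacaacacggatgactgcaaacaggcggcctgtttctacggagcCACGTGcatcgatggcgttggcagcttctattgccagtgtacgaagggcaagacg
InR, chr3R:21580205-21580305, minus strand: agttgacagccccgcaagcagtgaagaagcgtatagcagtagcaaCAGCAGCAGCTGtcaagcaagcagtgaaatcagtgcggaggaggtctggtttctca

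The windows differ widely in composition. The Ino80 window holds CACGCG on both strands and has a GC content of 77.2%, while the CG4822 window has 36.6% and none of the marked motifs. Sgs3 encodes a glue protein of the larval salivary gland, and its window is a tandem repeat of a short, near-identical unit with no marked motif. Reads from such repeats can map to several places, and the effect on this peak was not tested. The N window, in the gene for the Notch receptor, holds 1 CACGTG. In the window of InR, which encodes the insulin receptor, CAGCAGCAG and CAGCTG overlap.

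Coding sequence was the feature with the fewest peaks per length. The CDS that satisfied the distance rule spanned 18.9 Mb, or 14.1% of the 6 chromosome arms, and held 39.1 peaks per Mb (exact Poisson 95% interval 36.3 to 42.0). Untranslated regions (UTRs) held 107.7 peaks per Mb, intergenic DNA 201.5, introns 237.1 and the 500 bp on either side of a TSS 518.4. The replicates' own lists gave the same order, with 46.1 peaks per Mb of CDS in replicate 2 and 44.9 in replicate 3. In the optimal list the CDS density was 1.11 per Mb (0.689 to 1.70), against 12.4 in UTRs, 34.9 in intergenic DNA, 45.0 in introns and 148.6 near a TSS. In each of these lists the CDS interval lay below those of the other features.

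**Figure D1:**
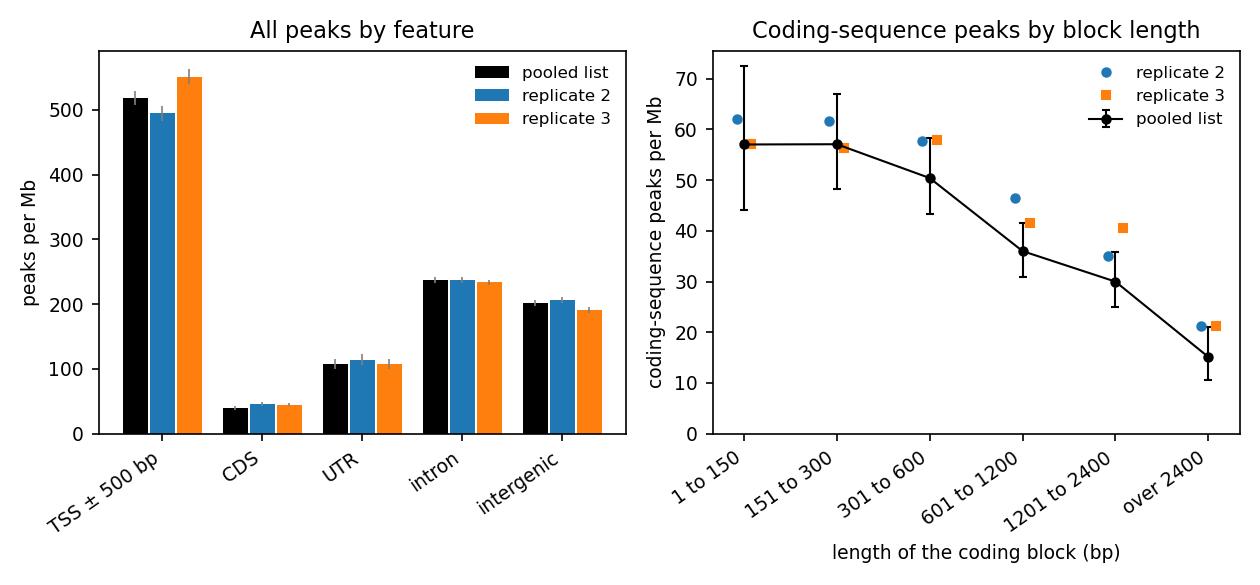
Left, peaks per Mb (y axis) in 5 classes of sequence for the pooled list and the list of each replicate, with exact Poisson 95% intervals as bars; CDS is lowest in each list, at 39.1, 46.1 and 44.9 per Mb. Right, CDS peaks per Mb (y axis) by the length in bp of the coding block that holds the summit (x axis), with intervals for the pooled list, falling from 57.0 in blocks of up to 150 bp to 15.1 in blocks over 2400 bp.

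The peaks in CDS were also weak. The signal value is the authors' own enrichment value for a peak, on a scale set within each list. It ranged from 36.8 to 1235 over the CDS peaks, with a median of 47.4 and quartiles of 40.4 and 60.5, against a median of 78.0 for the other pooled peaks. Medians were 62.6 in UTRs, 70.6 in intergenic DNA, 72.8 in introns and 102.2 near a TSS. The median rank of a CDS peak was 24009 of 30000 in the pooled list. In the replicates' own lists it was 23927 of 30000 in replicate 2 and 24446.5 of 30000 in replicate 3. The median −log10 q-value of CDS peaks was 0.542, against 1.49 for other peaks, and 574 of them (77.9%) had a value under 1, against 38.5% of other peaks. Of all pooled peaks, 26.7% stood at the highest −log10 q-value in the list, 4.21, and 27 CDS peaks (3.66%) did.

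The share of peaks that lay in CDS was far higher at the weak than at the strong end of each of the 3 called lists. Among the 3000 strongest pooled peaks 7 were in CDS (0.233%), and among the 3000 weakest 217 were (7.23%). The same bins gave 0.167% and 7.90% in replicate 2 and 0.267% and 8.03% in replicate 3. Each list holds exactly 30000 peaks, so the number of CDS peaks depends on where the lists end, and only 100 of the 737 were among the 15000 strongest pooled peaks.

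**Figure D2:**
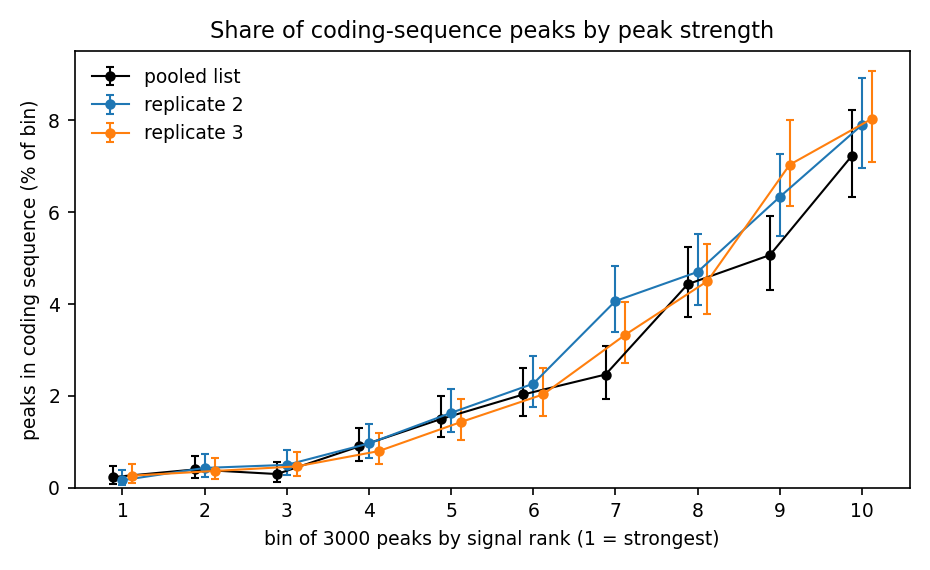
Percent of peaks with their summit in CDS (y axis) in 10 bins of 3000 peaks ordered by signal rank from strongest to weakest (x axis), for the pooled list and each replicate's list, with exact binomial 95% intervals. The first 3 bins of each list hold at most 15 CDS peaks each, and the last reaches 7.23% to 8.03% in the last.

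The optimal list held exactly the strongest pooled peaks, so belonging to it is here a limit on signal. It took in 20.5% of all pooled peaks but 2.85% of the CDS peaks (21 of 737, interval 1.77 to 4.32), which made up 0.341% of the optimal list. Of each replicate's own 6152 strongest peaks, 19 lay in CDS in replicate 2 and 20 in replicate 3. These are 2.19% and 2.36% of the CDS peaks of those lists.

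The strongest CDS peak lay in CG42342, an uncharacterised gene on 3R, with a signal of 1235. It ranked 221 in the pooled list, 463 in replicate 2 and 118 in replicate 3. Its summit (chr3R:16552462) was 4 bp from the edge of a 106 bp internal coding exon, and 24.1% of the peak interval was CDS. The next was in Pde1c, which encodes a cyclic nucleotide phosphodiesterase, with a signal of 1015 and ranks of 356, 250 and 646 in the pooled list, replicate 2 and replicate 3. Its summit (chr2L:11816580) was in the last coding exon, 19 bp from the edge. Both thus stood among the 1000 strongest peaks of each list, at the border of a coding exon and an intron or UTR.

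The third peak was in the last coding exon of otp, a homeodomain gene, with a signal of 782.2 and ranks of 613, 481 and 965. A peak in bun, which encodes transcription factors of the TSC-22 family, followed at 522.0 with ranks of 1298, 2284 and 812. It lay in the last coding exon, at 97.1% of the CDS of its transcript, in sequence that is coding in all 10 transcripts that span it. The peak in l(3)mbn came next at 513.8 (1331, 1125 and 1657). These 5 peaks were the CDS peaks above a signal of 500.

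Further down came genes of transcription factors and of a chromatin remodeller. Ino80, the ATPase of the INO80 chromatin remodelling complex, had a signal of 303.0 and ranks of 2878, 5361 and 1948 in the pooled list, replicate 2 and replicate 3. The zinc finger gene peb (hindsight) had 292.3 (ranks 3036, 4490 and 2298), in a coding exon of 4815 bp but 37 bp from its edge. In hth, which encodes the Hox cofactor Homothorax, the signal was 188.8, and the ranks of the replicates lay furthest apart among the optimal peaks in both lists, at 9307 in replicate 2 and 3887 in replicate 3. A second bun peak, at 206.3 (4784, 4402 and 6025), lay in a first exon that is coding in 1 of the 6 transcripts that span it.

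The other optimal peaks lay in genes of varied function. CG10654 had a signal of 316.0, Ubr1, an N-end rule ubiquitin ligase, 283.2, and B4 276.0. Sgs3 had 247.8, bif, a regulator of the actin cytoskeleton, 242.8, and klar, which encodes a KASH protein of the nuclear envelope, 192.4. The receptor gene mthl14 had 187.3, the laminin gene wb 185.2 and CG13737 182.0. The list ended with the semaphorin gene Sema2a at 180.4, the adaptor gene Dab at 171.3 and CG4822 at 170.9. Apart from Dab, which overlapped no peak of replicate 2 but ranked 5199 in replicate 3, all of the 21 were in both replicate lists. Their ranks ran from 250 to 9307 in replicate 2 and from 118 to 8322 in replicate 3, and 15 of them stood in the first 6152 of both.

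**Figure D3:**
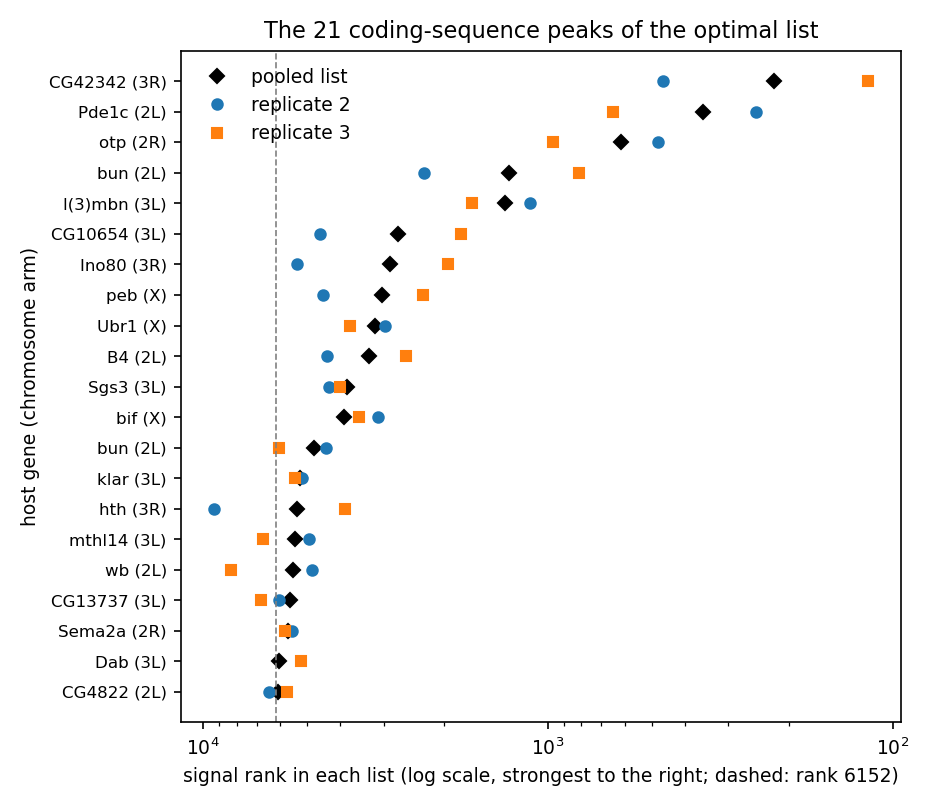
Signal rank (x axis, log scale, strongest to the right) of the 21 CDS peaks of the optimal list in the pooled list, replicate 2 and replicate 3, 1 row per peak with its host gene and arm; the dashed line marks rank 6152. Dab has no point for replicate 2, and 5 peaks lie beyond the line in 1 replicate: hth (9307) and CG4822 (6454) in replicate 2, and wb (8322), CG13737 (6781) and mthl14 (6701) in replicate 3.

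The optimal CDS peaks had a smaller median distance to an exon edge than the rest, a description with no test. For the 21 optimal peaks the median distance from the summit to the edge of its coding block was 52 bp, against 109.5 bp for the other 716, and the median block was 257 bp long, against 565.5 bp. A median of 66.3% of the interval of an optimal peak was CDS, against 79.5% for the others. In 7 of the 21 less than 50% of the interval was CDS, and in 3 (CG10654, Sgs3 and wb) all of it was. Over all 737 peaks, 92 (12.5%) had less than 50% of the interval in CDS and 221 (29.99%) had all of it there. Most intervals had the width the list uses by default, 424 bp, which 726 CDS peaks shared. Only 11 of the 21 optimal peaks had it, and their widths ran from 143 to 872 bp. The shares of the interval in CDS are thus compared over unlike widths.

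Across all CDS peaks, density fell with the length of the coding block. Blocks of up to 150 bp held 57.0 peaks per Mb (44.2 to 72.4), blocks of 601 to 1200 bp 36.0 (31.0 to 41.6), and blocks over 2400 bp 15.1 (10.5 to 21.02). Replicate 2 gave 62.1, 46.4 and 21.2 per Mb in these classes and replicate 3 gave 57.0, 41.5 and 21.2. Density also fell with distance from the edge of the block, from 58.1 per Mb (48.1 to 69.6) at 0 to 24 bp to 18.5 (14.8 to 22.8) at 400 bp or more. Beyond 400 bp the replicates gave 24.4 and 28.9 per Mb, again their lowest values, but at 0 to 24 bp they gave 46.3 and 48.2, below the 57.8 and 59.3 at 25 to 49 bp. Block length and distance to the edge are tied to each other, and their parts cannot be told apart here.

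Sequence that is coding in some transcripts and not in others held more peaks in the pooled list. There were 104 such peaks, at 57.7 per Mb (47.1 to 69.9), against 37.1 per Mb (34.3 to 40.1) where every spanning transcript is coding. Replicate 2 gave 78.8 against 42.6 per Mb, but replicate 3 gave 51.04 against 44.3, a smaller difference. By exon, 303 peaks (41.1%) lay in an internal coding exon, 211 in the last, 158 in the first and 65 in the only coding exon of the transcript used. The median distance to the nearest protein-coding TSS was 1632 bp, and for 515 peaks (69.9%) that TSS belonged to the host gene. Density was 50.7 per Mb at 501 to 750 bp from a TSS and 31.8 per Mb beyond 5000 bp, with 62.97 and 36.5 in replicate 2 and 55.5 and 37.3 in replicate 3. Just inside the 500 bp limit lay CG16815 (501 bp, signal 39.3), Nup188 (506 bp, 57.3) and CG13692 (511 bp, 50.3). Just outside lay CG32182 (500 bp, 61.0), Argk1 (497 bp, 38.6) and RluA-2 (495 bp, 89.4), among 363 CDS summits that the limit removed.

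CDS peaks recurred less between the replicates than other peaks did. Both replicate lists held an overlapping peak for 74.7% of all pooled peaks, but for 287 of the 737 CDS peaks (38.9%, 35.4 to 42.6). A further 185 overlapped a peak of replicate 2 only, 197 of replicate 3 only and 68 of neither. The 2 libraries thus contributed about equally to the CDS peaks seen in 1 list. Where a replicate peak overlapped, its summit lay a median of 34 bp away in replicate 2 and 20 bp in replicate 3. Spearman's rho between the ranks in the 2 replicates was 0.566 over the 287 CDS peaks in both and 0.706 over 22119 other peaks. Those ranks share the control file and the cap on list length, and the 2 values of rho were not matched for peak strength. CDS peaks are also weak peaks, so the recurrence of both kinds was compared within bins of 3000 pooled ranks, a comparison chosen after the data were seen. In the 5 strongest bins 97.0% of the 100 CDS peaks recurred. In each of the 7 strongest bins the interval for CDS peaks held the share of the other peaks. In the eighth bin 37.6% of CDS peaks (29.4 to 46.4) were in both lists, against 53.9% of other peaks. In the last the shares were 11.5% (7.60 to 16.5) and 28.9%. The interval for CDS peaks lay below the share of the other peaks in the 3 weakest bins. Overlap can be counted more than once, since 48 CDS peaks lay within 250 bp of another and 28 shared a replicate 2 peak with another, as 32 did a replicate 3 peak.

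**Figure D4:**
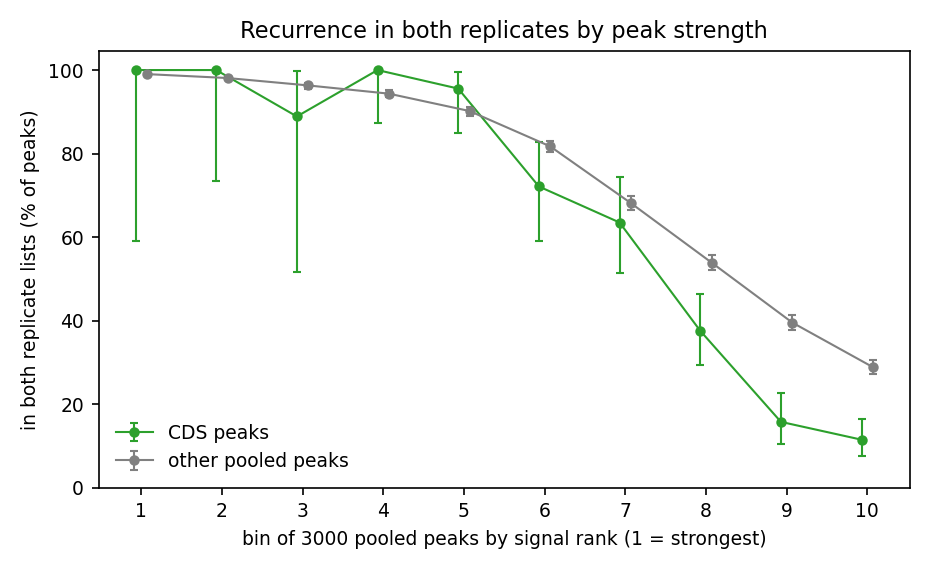
Percent of pooled peaks with an overlapping peak in both replicate lists (y axis) in 10 bins of 3000 by pooled signal rank (x axis), for CDS peaks and for the other peaks, with exact binomial 95% intervals. The curves lie close together in the stronger bins and part in the last 3, ending at 11.5% and 28.9%.

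The CDS peaks fell in 626 of the 12481 protein-coding genes with eligible CDS (5.02%), and 84 genes had more than 1. The share rose with the length of eligible CDS, from 1.72% of genes with up to 500 bp to 10.7% of those above 4000 bp. Of the host genes 495 (79.1%) also had a pooled peak within 500 bp of a TSS of their own, against 50.4% of all genes with eligible CDS. This difference was present in each class of CDS length, from 70.2% of hosts against 37.5% of all genes in the shortest to 89.5% against 63.6% in the longest. For optimal peaks at the TSS the shares were 39.5% and 21.8%.

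The genes with the most CDS peaks were bun, Cda5 and lola, with 6 each. In bun the signals after the first 2 were 96.7, 73.2, 39.97 and 38.7. The bun summits include close pairs within 250 bp, and the peak at 96.7 shared its interval with the strongest one. Cda5, which encodes a chitin deacetylase-like protein, had signals from 38.3 to 90.8, all in internal exons, and 3 of its peaks were in both replicate lists. lola encodes a family of BTB zinc finger factors that differ in their last exons. 5 of its 6 peaks lay in last coding exons that code in 1 transcript each, of 20 to 23 that span them, with signals from 41.6 to 77.6. The sixth lola peak, at 42.1, lay in an exon that codes in all 24 spanning transcripts.

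klar had 5 CDS peaks (37.4 to 192.4) and gukh, whose product binds the scaffold protein Discs large, 4 (38.1 to 155.4). The gukh peak of 155.4 ranked 14648 in replicate 2 and 4492 in replicate 3, so it stood far higher in 1 replicate. N, the receptor gene of the pathway that activates E(spl) genes, had 3. The strongest N peak, with the CACGTG window printed above, had a signal of 117.7 and ranked 9449 in the pooled list, 9925 in replicate 2 and 8843 in replicate 3. The other N peaks had signals of 49.1 and 40.4. bif, CG43736, Calr, which encodes calreticulin, and tara also had 3 each, as did 5 further genes with weaker peaks. Below the optimal list the strongest CDS peaks were those of Tsp97E, a tetraspanin gene (167.0), InR (159.9) and sgg, which encodes the fly glycogen synthase kinase (158.7).

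The E(spl) complex on 3R, which holds the E(spl)m8-HLH gene and its relatives, had 55 pooled summits between its outer genes. Of these, 1 was a CDS peak, while 2.46% of all pooled peaks were CDS peaks. At this count the complex cannot be told apart from the pooled list as a whole. The CDS peak lay in Kaz-m1, a protease inhibitor gene of the complex, with a signal of 92.5. It ranked 12400 in the pooled list, 11776 in replicate 2 and 14473 in replicate 3. None of the 10 genes of the E(spl) list with eligible CDS, gro included, held a CDS peak. That eligible CDS was only 0.00383 Mb, and 2190 bp of it lay in gro. The other genes of the list are short and mostly within 500 bp of their TSS, with at most 368 bp of eligible CDS each.

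Gene lists of known roles were read against the 5.02% of all genes. Among 19 genes of neuroblast identity and timing 6 had a CDS peak (31.6%, 12.6 to 56.6). They included the temporal factor gene Kr (85.3), SoxN (53.3), nub (48.9) and sna (40.1), and of these Kr was in both replicate lists. Among 24 proneural and sensory organ genes 5 did (20.8%, 7.13 to 42.2), with ase, a proneural bHLH gene, at 80.6, the repressor gene ttk at 79.5, sens at 52.2 and elav at 49.7. Of these, ase, ttk and elav had a CDS peak in both replicate lists, and sens had none there. Of 28 genes of the neuroectoderm, axis and segmentation 5 did (17.9%, 6.06 to 36.9), led by slp2 (79.6), wg (77.8), slp1 (66.1) and kni (55.7), all 4 in both replicate lists. Of 40 genes of the EGF receptor, Dpp, Hedgehog and Wingless pathways 8 did (interval 9.05 to 35.7%). These included sgg (158.7), the EGF receptor inhibitor gene aos (118.9), the repressor gene aop (55.7) and the ligand gene spi (53.2). Of these, sgg and aos had a CDS peak in both replicate lists, and aop and spi had none there.

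In these lists the genes also carry more eligible CDS, with medians from 1293 to 2071 bp, against 1016 bp over all genes. Among all genes with 2001 to 4000 bp, 8.38% had a CDS peak. Of 11 Hox genes and cofactors, hth and Ubx (39.6) had one. Glutamine-repeat rich regulators had 5 of 24, with lola (77.6), Eip75B (66.9), mask (65.0) and bab2 (51.1). Cadherins and adhesion genes had 5 of 28, with Fas2 (62.8), hbs (47.3), Fas3 (39.5) and rst (38.8). Axon guidance genes had 4 of 25, with Sema2a, PlexB (76.3), sli (43.8) and robo2 (38.2), and matrix genes 2 of 13, wb and Col4a1 (68.4). Among the genes just named, hth, lola, Eip75B, mask, Fas2, Sema2a, wb and Col4a1 had a CDS peak in both replicate lists. Ubx, bab2, hbs, Fas3, rst, PlexB, sli and robo2 had none there. The adhesion, axon guidance and matrix lists had medians of 5428.5, 4185 and 5364 bp of eligible CDS. Among all genes above 4000 bp, 10.7% had a CDS peak. Per Mb of eligible CDS these lists held 33.0, 39.6 and 24.2 CDS peaks, against 39.1 over all genes. The Hox and glutamine-repeat lists held 109.3 and 87.9, and the neuroblast, proneural, neuroectoderm and pathway lists 188.7, 125.8, 131.1 and 74.9. These densities rest on few peaks, 2 and 10 in the Hox and glutamine-repeat lists and 7, 6, 6 and 8 in the others, in the order given. Those of the adhesion, axon guidance and matrix lists rest on 6, 5 and 2.

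By share of genes, the other lists stood near or below the value for all genes. The Notch signalling list had 1 of 24, N itself. Delta, entered in that list as Dl, was not matched by symbol and is not counted. It held 2 CDS peaks, at 52.6 and 42.9, neither of them in both replicate lists. Polycomb and Trithorax genes had 1 of 28 (osa, 38.3), insulator and chromatin proteins 1 of 23 (Chro, 44.9), and muscle and giant cytoskeletal proteins 1 of 24 (Msp300, 44.0, in 65571 bp of eligible CDS). Abundant housekeeping proteins had 2 of 25, alphaTub84B (70.6) and betaTub56D (58.7), and cytoplasmic ribosomal proteins 4 of 74, RpL13A (72.4), RpL13 (62.2), RpL19 (57.7) and RpL3 (48.7). None of these 6 housekeeping or ribosomal genes had a CDS peak in both replicate lists, nor did osa, Chro or Msp300. Per Mb of eligible CDS, however, the ribosomal list held 197.6 CDS peaks and the housekeeping list 79.4, against 39.1 over all genes. These densities rest on 5 and 3 peaks, and the median eligible CDS of the ribosomal genes was 280.5 bp. Chemosensory receptors had 5 of 179, with Gr39b (67.3), Ir68a (59.5), Ir21a (58.2) and Ir93a (44.8), and cytochrome P450 genes 2 of 85, Cyp4ac3 (78.1) and Cyp6v1 (37.0). Of these named genes, only Gr39b and Ir68a had a CDS peak in both replicate lists. No CDS peak was found in 85 cuticle protein genes (0 to 4.25%), 62 mitochondrial ribosomal protein genes (0 to 5.78%), 31 histone, 31 serine protease and 17 heat shock genes. Several of these families have little eligible CDS, with medians of 296 to 426 bp for all but the heat shock genes.

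**Figure D5:**
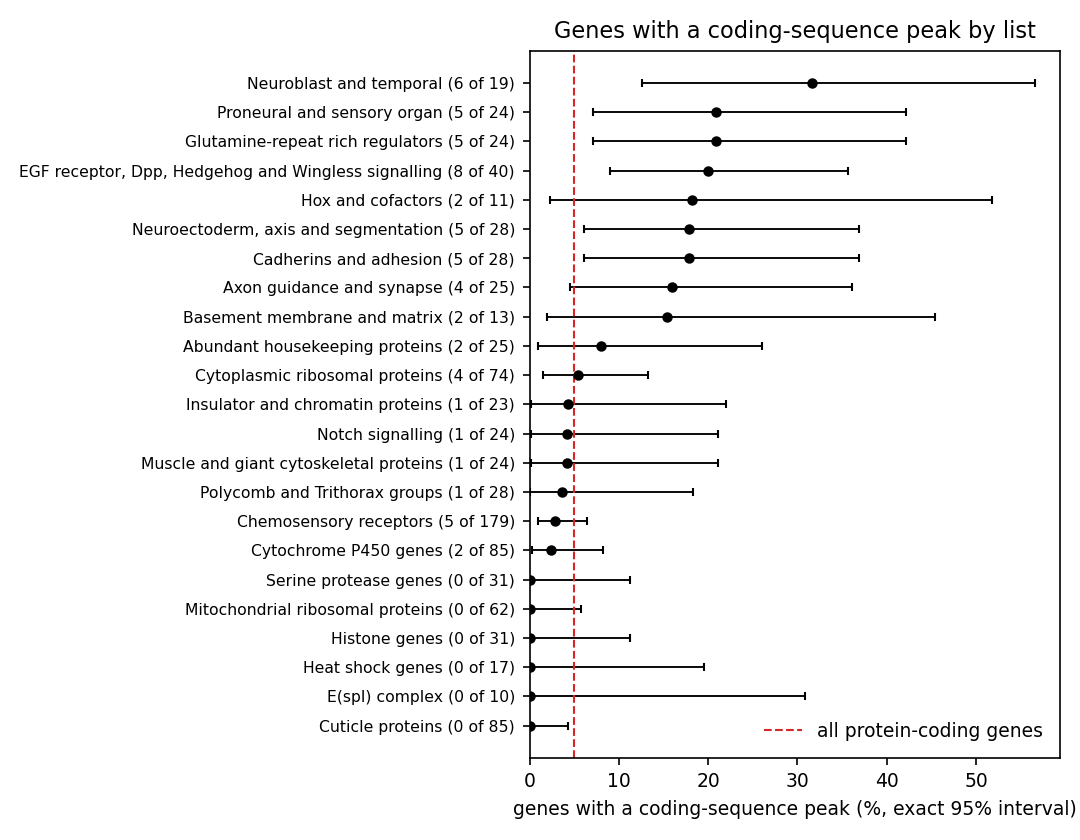
Percent of genes with eligible CDS that hold a CDS peak (x axis) for each gene list (y axis, with counts), with exact binomial 95% intervals; the dashed line is the 5.02% of all protein-coding genes. The 6 lists at the left edge have no such gene, and the neuroblast list is highest at 31.6%.

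Windows reaching 50 bp to either side of the summits were searched for 19 motifs on both strands. Windows were compared with 164324 tiles of the same length over all eligible CDS, and only the 524 CDS peaks whose window was wholly CDS gave summit windows. The windows 250 bp away lay to either side of a summit, 719 windows from 531 CDS peaks. They are therefore not flanks of the same 524 peaks, and a peak can count more than once. CACGTG was in 4.01% of summit windows (2.50 to 6.06) and 1.56% of tiles. The CDS peaks of replicate 2 and replicate 3 gave lower values, 2.11% and 2.51%, and windows of CDS 250 bp from the summits 2.50%. CACGCG was in 4.39% (2.80 to 6.51) of summit windows, 2.81% of tiles and 4.03% of windows 250 bp away, with 4.21% in replicate 2 and 4.08% in replicate 3. CACGAG, the form of CACNAG with G, was in 6.11% (4.21 to 8.51) against 3.92% of tiles and 2.64% at 250 bp, but in replicate 2 it was in 3.31%, below the tiles. CACNAG as a whole was in 25.6% of summit windows, 19.7% of tiles and 23.5% at 250 bp, with 20.75% in replicate 2 and 24.02% in replicate 3.

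Other E-box forms stood on either side of the tiles. CAGCTG was in 12.8% (10.1 to 16.0) of summit windows and 7.88% of tiles, with 11.1% in replicate 2, 9.73% in replicate 3 and 9.04% at 250 bp. CAGGTG was in 10.3% against 7.90% of tiles and CAGATG in 6.68% against 7.32%, both with intervals that hold the tile value. CATATG was in 0.382% against 1.33% of tiles, or 2 windows, while replicate 2 gave 1.504% and replicate 3 gave 0.942%. The Su(H) site GTGGGAA was in 0.954% of windows and 0.996% of tiles.

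Of the triplet repeats searched, CAGCAGCAG and CAACAACAA were also more frequent at the summits than in the tiles. CAGCAGCAG was in 8.59% of summit windows (6.33 to 11.3) against 3.05% of tiles, and the replicates gave 7.97% and 7.69%. It was also common 250 bp away, at 6.26%. CAACAACAA was in 2.86% (1.61 to 4.68) against 0.943% of tiles, with 3.61% and 2.51% in the replicates. GGCGGCGGC was in 1.718% (0.788 to 3.235) against 0.935% of tiles, an interval that holds the tile value, with 2.105% and 2.355% in the replicates. The repeat CACACACA was in 6 windows, 1.145% (0.421 to 2.476), against 0.2185% of tiles, with 0.6015% and 0.6279% in the replicates. GAGAGAG was in 0 of 524 windows, which allows a share of up to 0.573%, and in 0.470% of tiles. The summit windows were richer in GC than the tiles, 57.0% against 53.7%, with 56.5% in each replicate and 55.9% at 250 bp. The part of base composition and of repeat mapping in these shares was not tested. Windows of the other pooled peaks had 40.2% GC, and held TAATTA in 7.08% and AAAAAA in 20.7%, against 0.382% and 2.67% in the CDS windows, while CDS tiles held them in 0.533% and 2.70%.

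By arm, CDS peaks per Mb of eligible CDS were 44.6 on 2L, 42.8 on 2R, 42.0 on 3L and 36.2 on 3R. The X had 30.9 (25.3 to 37.5), with 36.9 in replicate 2 and 39.8 in replicate 3, and arm 4 had 7 peaks. A stronger pooled peak lay within 1 kb of 244 CDS peaks (33.1%), close to the 33.7% near a TSS and 35.9% in introns. Within 500 bp the share was 10.3% for CDS, against 15.9% in UTRs, 16.4% in introns, 17.4% in intergenic DNA and 20.4% near a TSS. These shares depend on the strength of the peaks as well as on their spacing, and CDS peaks were weak. The median distance to the nearest other pooled peak was 1078 bp, against 701 to 846 bp in the other classes.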

How the data were processed

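The 4 deposited peak lists on dm6 were used, in narrowPeak form. Per the file headers, the pooled list was called on the alignments of both replicates with the control, each replicate list on its own alignments with the same control, and the optimal list was derived from these 3. The signal of a peak and its −log10 q-value are the authors' values as deposited, and signal was compared within a list only. The sources used here name no aligner, caller, version or threshold. The p-value column held 1 constant value and was not used. The files used hold no read counts, so depth is unknown, and precision is set by the number of peaks.

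Summits were placed on Release 6 arms with the Ensembl release 115 annotation, in the order TSS (within 500 bp), CDS, UTR, intron and intergenic. Eligible CDS is CDS more than 500 bp from a protein-coding TSS, and a coding block is a run of CDS merged over transcripts. Peaks overlapped when they shared at least 1 bp. Intervals are exact 95% binomial or Poisson intervals and cover counting error only. The motif found in 0 windows has a limit of 3 counts, and gene lists with 0 have the exact binomial bound.

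The 23 gene lists and 19 motifs, like the regions, were chosen with earlier results of these data known. Of the list symbols, 7 were found under another name and 6 were not found and were left out, Dl (Delta) among them. Named genes are hosts of the 20 strongest CDS peaks, the 10 genes with most CDS peaks (ties by strongest signal), up to 4 per list, the E(spl) complex, the peaks nearest the 500 bp limit and the genes of the printed windows, InR among them. CG4822, the last optimal peak, is named too, since the optimal peaks are given in full. Tsp97E and Delta are outside the rule and were named after their values were seen. Alternatives were other TSS distances, CDS in every transcript, the 15000 strongest peaks, other overlaps, other motif windows and leaving out each replicate. Python 3.11.15, numpy 2.4.6, scipy 1.17.1, pandas 2.3.3 and matplotlib 3.10.9 were used, and classes and motif search were tested on simulated data.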

Additional observations from a re-analysis of the deposited data

How the results depend on the processing

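CDS peaks stayed less dense than other peaks per Mb under each alternative run, and the optimal list held few of them. The share of pooled peaks in CDS was 3.03% at more than 200 bp from a TSS, 1.80% at more than 1000 bp and 2.11% for sequence coding in every transcript. Among the 15000 strongest pooled peaks there were 100 CDS peaks (0.667%) in 91 genes, with a density of 0.0409 times that of other peaks (0.154 for all), a median signal of 98.9, 21.0% in the optimal list and 97.0% in both replicate lists. Replicates 2 and 3 were also left out in turn, with the other replicate's own list in place of the pooled one. The share of peaks in CDS was then 2.83% to 2.90% and the density ratio 0.177 to 0.182. The median signal was 24.9 to 27.6 on the lists' own scales, and 32.8% to 34.3% of CDS peaks recurred in the left-out list's peaks. Recurrence in both replicate lists was 31.6% when 50% of both peaks had to overlap and 23.7% with summits within 100 bp. With optimal peaks only, 3 gene lists instead of 17 had a CDS peak. Of 95 motif ratios under alternatives, 72 stayed within the interval and 23 did not. The CACGTG ratio to CDS tiles was 2.57 and fell to 1.35 without replicate 3, and that of CACGAG was 1.56 and fell to 0.844. The causes were not tested. Depth is unknown and the lists stop at 30000 peaks, so weaker CDS peaks were not seen.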
